A study of Mus musculus with 9 samples.

Results

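The mitochondrial ribosomal protein genes were taken as the genes of the count table whose symbol is Mrpl or Mrps followed by a number and at most 1 letter, with a mean of at least 10 counts over the 9 samples. The pattern matched 78 of the 27179 genes listed, and all 78 passed the count minimum and the filter on low counts of the model, which kept 17344 genes. Of these, 49 carried a large subunit symbol (Mrpl) and 29 a small subunit symbol (Mrps), and they were spread over 17 chromosomes. Mean counts ran from 12.9 for Mrpl36 and 505 for Mrps17, the members nearest above the minimum, to 6215 for Mrpl42, and no gene with a matching symbol lay below the minimum.

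RNA was sequenced from punches of the paraventricular nucleus (PVN), the hypothalamic nucleus that holds vasopressin, oxytocin and corticotropin-releasing hormone neurons, with 1 mouse per library and 3 mice per group. All mice were male, wild type and of the C57BL/6J strain by the methods (C57BL/6 in the labels). Control mice received chow with 16% of calories from fat for 12 weeks, HFD mice a high fat diet with 60% of calories from fat for 12 weeks, and HFD+Mino mice the same high fat diet with minocycline at 40 mg/kg/day in the drinking water for the last 6 weeks. The sample labels give the age as post natal day 35, which matches the start age of 5 weeks in the methods and not the end of the 12 weeks of diet. No group received minocycline on chow, so the drug was compared only within the high fat diet. A bulk punch mixes neurons and glia, and in such data fewer cells of a type and less RNA per cell cannot be told apart.

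Mitochondria translate the few proteins encoded in their own genome, all of them subunits of the respiratory chain and ATP synthase, on a ribosome that differs from the cytosolic one. Its rRNAs come from the mitochondrial genome, while its proteins are encoded in the nucleus, made in the cytosol and imported, so the subunits must be supplied together. Tetracyclines, the class of antibiotics to which minocycline belongs, bind the small subunit of bacterial ribosomes and also slow protein synthesis in mitochondria.

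Promoter windows from RefSeq (GRCm38.p6) were matched for 69 of the 78 members, in 75 windows that run from 250 bases before to 50 after the gene start. Nuclear genes of mitochondrial proteins are known for binding sites of NRF1 and of ETS factors such as GABPA, and 5 short motifs were searched on both strands. The NRF1 motif, GCGCA and GCGC separated by 1 base, stood in 17.3% of member windows and in 4.6% of all 32851 windows. The ETS motif CCGGAAG stood in 34.7% of member windows against 8.86% of all windows, and the YY1 motif AAGATGGC in 16% against 2.75%. The GC box GGGCGG was in 52% against 35.7%, and the TATA box TATAAA in 6.67% against 13.6%. The ETS and YY1 motifs can share 3 letters, which occurred in 0 member windows. At least 1 of the NRF1, ETS and YY1 motifs was present in 43 of the 75 member windows (57.3%), against 14.7% of all windows. Member windows were also rich in CG dinucleotides, with a median of 21 against 7 for all windows. A match describes letters in the window and is not a measured binding site.

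The 3 windows below, each cut at 30 bases after the start, belong to the member that passed the threshold in HFD+Mino against HFD (Mrpl41) and to the members with the smallest evidence of a diet difference (Mrpl57 and Mrpl43). Capitals mark motif matches on either strand, and each sequence is read 5′ to 3′ on the gene's strand. Mrpl41 lies on the minus strand with its window at chr2:24975069-24975348, Mrpl57 on the plus strand at chr14:57825989-57826268, and Mrpl43 on the minus strand at chr19:45006413-45006692.
Mrpl41: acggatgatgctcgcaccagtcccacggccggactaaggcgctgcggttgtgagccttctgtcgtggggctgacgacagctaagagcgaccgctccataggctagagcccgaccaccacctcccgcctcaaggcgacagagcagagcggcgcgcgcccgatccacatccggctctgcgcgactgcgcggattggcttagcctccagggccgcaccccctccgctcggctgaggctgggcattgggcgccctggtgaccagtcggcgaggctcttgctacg
Mrpl57: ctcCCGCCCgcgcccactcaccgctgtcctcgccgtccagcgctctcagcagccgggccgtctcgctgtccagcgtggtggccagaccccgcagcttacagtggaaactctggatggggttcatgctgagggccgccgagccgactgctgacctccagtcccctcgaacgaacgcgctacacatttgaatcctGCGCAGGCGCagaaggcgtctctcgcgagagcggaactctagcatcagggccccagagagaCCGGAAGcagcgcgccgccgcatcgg
Mrpl43: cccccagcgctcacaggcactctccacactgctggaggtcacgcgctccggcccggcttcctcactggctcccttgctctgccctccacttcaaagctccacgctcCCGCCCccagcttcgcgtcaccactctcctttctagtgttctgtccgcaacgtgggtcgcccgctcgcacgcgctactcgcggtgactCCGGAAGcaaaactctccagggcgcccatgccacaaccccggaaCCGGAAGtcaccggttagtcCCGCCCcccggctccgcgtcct
The Mrpl41 window held no match to the 5 motifs. The Mrpl57 window held a GC box, an NRF1 motif and an ETS motif, and the Mrpl43 window held 2 ETS motifs and 2 GC boxes.

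Libraries held between 17728590 (HFD replicate 1) and 42326213 counts (Control replicate 1). Rn45s, a precursor of cytosolic rRNA, took 0.350% to 0.430% of counts in the HFD libraries, against 0.0266% to 0.0438% in Control and 0.0450% to 0.113% in HFD+Mino, so HFD stood apart from both other groups. With Rn45s, Rn18s and the mitochondrial genome left out, the member medians of all 3 pair comparisons were the same at 2 decimals. That setting takes these genes out of the library sizes and the fit, while the member counts stay as they were. Whether the Rn45s difference bears on the member levels was not tested. The punches differed in the markers of the nucleus itself. The summed level of 6 PVN neuron markers (Avp, Oxt, Crh, Trh, Sim1 and Otp) was 27.8 CPM (read counts relative to the TMM-scaled library size) in Control replicate 1, 931 and 2561 in the other Control samples, 2478 to 3724 in HFD, and 37707, 31901 and 3102 in HFD+Mino replicates 1, 2 and 3. Otp was at 0 in Control replicate 1 and at or below 2.77 CPM in every sample, and Control replicate 1 also had the highest sum of oligodendrocyte markers (27531 CPM, against 1955 to 6222 in the other 8 samples). HFD+Mino replicates 1 and 2 stood apart in Avp at 28035 and 22169 CPM against 1217 in HFD+Mino replicate 3, and the same libraries held the highest member levels described next. Avp and Oxt (8903 and 8691 CPM) made up most of their marker sum, and Crh and Trh were also highest there. Sim1 was at 10.06 and 35.68 CPM in them, against 10.75 to 21.57 in HFD. Otp was at 0.616 and 0.371 CPM in them, below the 0.970 to 1.154 in HFD. The markers thus did not all move together, and the share of PVN neurons was not tested. The summed level of 3 oligodendrocyte precursor markers was higher in every HFD sample than in any other sample, at 39.5 to 75 CPM in Control, 119 to 125 in HFD and 34.1 to 45.1 in HFD+Mino, with 1 marker called by edgeR in HFD against Control and 2 in HFD+Mino against HFD. Astrocyte markers summed to 1559 to 1721, 2095 to 2215 and 961 to 1505 CPM in Control, HFD and HFD+Mino (5 markers, 0 called). Member levels without Control replicate 1 or without HFD+Mino replicates 1 and 2 are given for each comparison. The part that the makeup of the punches has in these levels was not tested. Without HFD+Mino replicates 1 and 2, replicate 3 is the only HFD+Mino sample left, so only effect sizes and signs are given there.

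The members took between 0.417% and 0.992% of a sample's counts. Their summed level was 6399, 5495 and 3865 CPM in Control replicates 1 to 3, and 3804, 4436 and 4144 CPM in HFD replicates 1 to 3. In HFD+Mino replicates 1 to 3 it was 11862, 10332 and 5529 CPM. The group sums were therefore 5253 ± 1285 CPM for Control, 4128 ± 316 CPM for HFD and 9241 ± 3304 CPM for HFD+Mino (mean ± SD, n = 3). Control and HFD overlapped, while the lowest HFD+Mino sum was above the highest HFD sum and below the highest Control sum.

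The balance of the subunits was steady from sample to sample, while that of single genes was less so. The ratio of summed Mrpl to summed Mrps CPM stayed between 1.98 and 2.04 in the 9 samples, although the sums themselves differed by more than the spread within HFD. Spearman correlations of member CPM between samples, across the 78 genes, lay between 0.68 and 0.976 over 36 sample pairs. HFD+Mino replicate 1 was the highest sample for 55 members, HFD+Mino replicate 2 for 21 and Control replicate 1 for 2. Control replicate 3 was the lowest for 36 members and HFD replicate 1 for 34, with HFD replicates 2 and 3 lowest for 3 and 5. Within Control, replicate 1 was the highest sample for 72 members and replicate 3 the lowest for 76. The median coefficient of variation of a member was 25.6% over the Control samples, 8.85% over the HFD samples and 38.8% over the HFD+Mino samples.

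**Figure D1:**
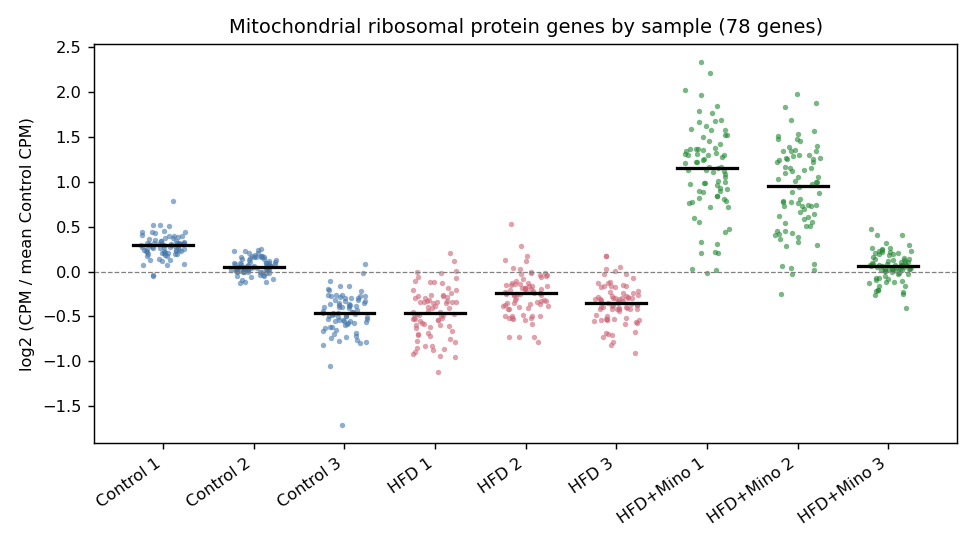
Level of each of the 78 genes in each sample as the log2 ratio of its CPM to its mean CPM in Control (vertical axis), with samples on the horizontal axis, 1 point per gene and a bar at the median. Medians were 0.30, 0.05 and -0.46 for Control, -0.46, -0.24 and -0.35 for HFD, and 1.16, 0.96 and 0.06 for HFD+Mino. A point at minus infinity (Mrpl36 with 0 counts in HFD replicate 1) is not drawn.

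Levels per length also ranged widely among members, with a median of 29.8 CPM per kb of exon against 3.89 for all tested genes with a known length. The highest were Mrpl41 (181 CPM per kb over the groups), Mrps12 (134), Mrpl27 (129) and Mrpl55 (115). Mrpl27 is the homolog of a bacterial protein whose tail reaches the site of peptide bond formation, and Mrpl41 and Mrpl55 have no bacterial counterpart. The lowest were Mrpl36 (0.347 CPM per kb), Mrps17 (2.41), Mrps35 (4.33) and Mrps5 (4.80). Mrpl36, a small zinc-binding protein of the large subunit, had 20, 10 and 3 counts in the Control libraries, 0, 6 and 7 in the HFD libraries and 39, 23 and 8 in the HFD+Mino libraries. The 0 in HFD replicate 1 allows a level of up to 0.151 CPM (3 counts), by counting error alone.

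The first comparison asks how the high fat diet alone bears on these genes. Member levels lay below those of Control in HFD, with a median log2 fold change of -0.35 (all tested genes, 0.0043), and 74 of 78 fold changes were below 0. None passed the threshold, a false discovery rate (FDR) under 0.01 with at least 1.5-fold in the edgeR quasi-likelihood test with Benjamini-Hochberg adjustment over all tested genes. In this comparison 1.74% of tested genes were called in either direction, 20.5% had an unadjusted p under 0.05, and DESeq2 also called 0 members. The smallest member FDR was 0.114 by edgeR, and 6 members had a 95% interval of the log2 difference wholly below 0. In 13 members every HFD sample was below every Control sample, against 16% of all tested genes, so the members' share was near the background. The median half-width of a member's 95% interval was 0.68 on the log2 scale, wider than the median difference.

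Mrps22, a mitochondrion-specific small subunit protein whose loss causes mitochondrial disease, had the smallest p. It measured 61.3, 56.0 and 32.6 CPM in Control and 25.9, 30.1 and 26.7 CPM in HFD. The groups did not overlap, and its log2 fold change was -0.86 ± 0.29 (SE), with FDR = 0.114 by edgeR. Mrps27, a pentatricopeptide repeat protein of the small subunit, measured 55.4, 53.2 and 44.0 CPM in Control and 28.6, 30.8 and 38.0 CPM in HFD (log2 fold change -0.65 ± 0.23). Mrps30, which carries a small subunit name but sits in the large subunit, had a log2 fold change of -0.66 ± 0.26, and its samples did not overlap. Mrps25 had a log2 fold change of -0.65 ± 0.28 and shares 4590 nt of exon with Nr2c2 on the opposite strand. Only 4 members were above 0, with log2 fold changes of 0.24 ± 0.41 for Mrpl52, 0.22 ± 0.20 for Mrps5, 0.07 ± 0.30 for Mrpl17 and 0.03 ± 0.28 for Mrpl43. Each of these intervals contains 0, and Mrps5 was the only member with every HFD sample above every Control sample. Without Control replicate 1, the library with the lowest sum of PVN neuron markers, the member median was -0.17 and 15 members were above 0. Mrps22 was then at -0.68 and Mrps27 at -0.58.

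The second comparison asks how minocycline bears on these genes under the high fat diet. Member levels in HFD+Mino lay above those in HFD, with a median log2 fold change of 1.17 (all tested genes, 0.01), and 77 of 78 were above 0. The 95% interval lay above 0 for 72 members and below 0 for 0. By the same edgeR test 7171 of all 17344 tested genes had an unadjusted p under 0.05 in either direction. In 71 of 78 members every HFD+Mino sample was above every HFD sample, against 23.3% of all tested genes. At FDR under 0.01 with at least 1.5-fold the edgeR test called 1 member, Mrpl41, higher, where 1.98% of tested genes were called higher. At FDR under 0.05 with the same fold it called 65 members higher, against 14.6% of tested genes, and the median member FDR by edgeR was 0.0222. Most members thus lay between these thresholds, and small changes of the model moved many of them across the stricter one.

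Mrpl41, a mitochondrion-specific large subunit protein (chromosome 2, 24972470 to 24975098, exon length 888 nt), measured 136, 128 and 83.4 CPM in Control. It measured 79.9, 96.2 and 80.1 CPM in HFD and 369.9, 322 and 153 CPM in HFD+Mino. The HFD+Mino samples were above all others, with replicate 3 nearest to Control. Group means were 116 ± 28.2, 85.4 ± 9.37 and 282 ± 114 CPM (SD, n = 3), and its log2 fold change in HFD+Mino against HFD was 1.72 ± 0.32 (SE), with FDR = 0.00846 by edgeR. Over the 9 samples left out in turn the edgeR FDR ran from 0.000635 to 0.0488. Without HFD+Mino replicates 1 and 2 the log2 fold change was 0.84. With a smooth trend on exon length removed from each sample the log2 fold change of Mrpl41 was 0.50 with FDR = 0.0474 by edgeR, and the gene was no longer called.

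Mrpl33, a small conserved large subunit protein, measured 52.6, 56.3 and 49.3 CPM in HFD and 236, 239 and 84.0 CPM in HFD+Mino. The groups did not overlap, and its log2 fold change was 1.82 ± 0.40 with FDR = 0.0122 by edgeR. Mrps12, the homolog of the bacterial protein S12 at the decoding centre, measured 70.6, 90.9 and 86.8 CPM in HFD and 330.3, 230.2 and 125 CPM in HFD+Mino. Its log2 fold change was 1.46 ± 0.32 with FDR = 0.0124 by edgeR. Mrps18b measured 11.3, 10.8 and 10.2 CPM in HFD and 38.8, 33.7 and 17.5 CPM in HFD+Mino, a log2 fold change of 1.47 ± 0.32 with FDR = 0.0121 by edgeR. In each of these genes HFD+Mino replicate 3 lay between the HFD samples and the other HFD+Mino samples. Without HFD+Mino replicates 1 and 2 the log2 fold changes were 0.67 for Mrpl33, 0.59 for Mrps12 and 0.69 for Mrps18b, and with the length trend removed they were 2.34, 0.31 and 0.90. Mrps18b shares 638 nt of exon with an antisense gene on the opposite strand, and reads of such pairs cannot be told apart where counting ignores strand.

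**Figure D2:**
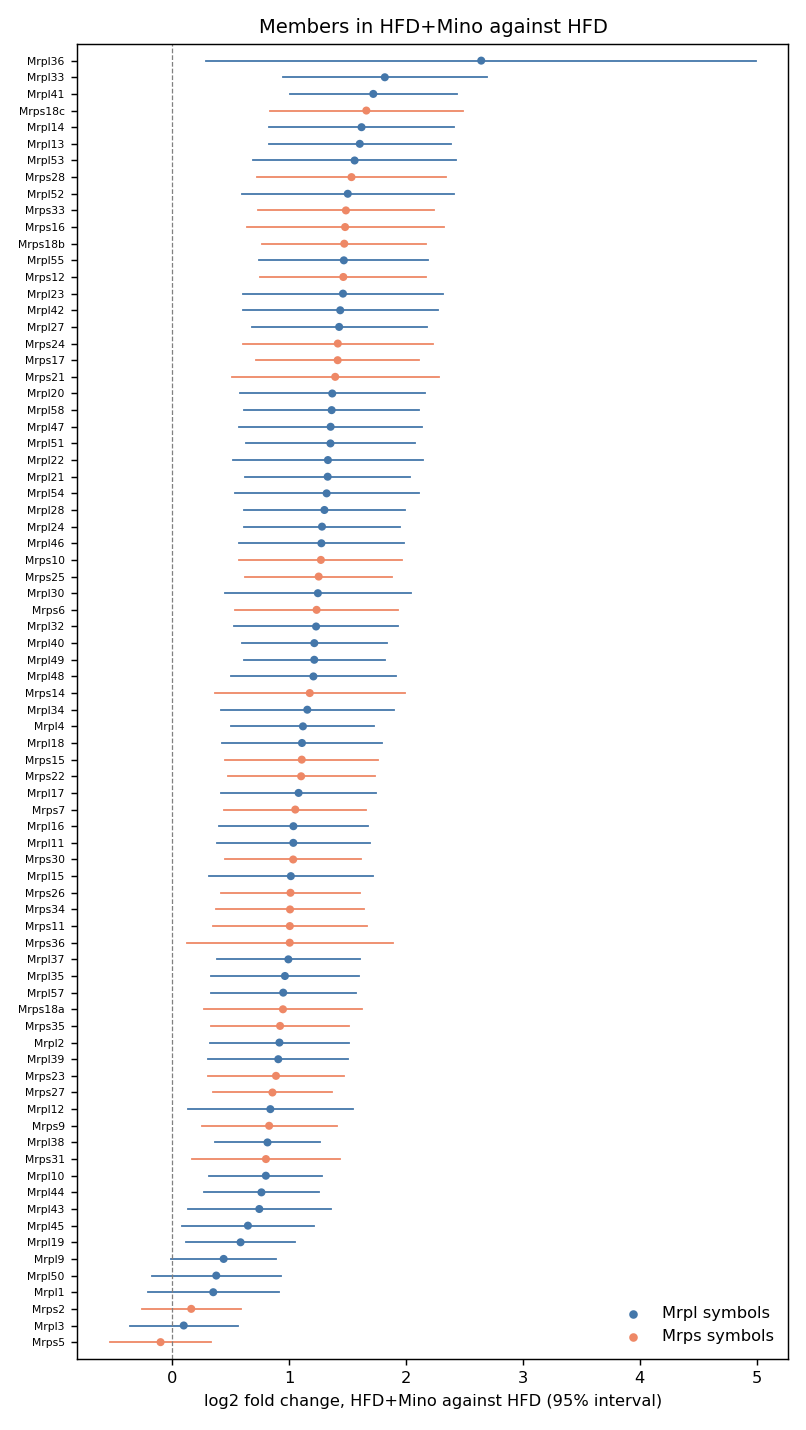
Log2 fold change of each member in HFD+Mino against HFD (horizontal axis) with its 95% interval from the edgeR model, sorted by size, with 3 samples per group and colors for Mrpl and Mrps symbols. The intervals of 72 members lie above 0, where 7171 of all 17344 tested genes had an unadjusted edgeR p under 0.05 in either direction. Mrps5 (-0.10) is the only member below 0, and the wide interval at the top is Mrpl36.

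Mrps5, Mrpl3 and Mrps2 had the smallest fold changes of the members. Mrps5, the homolog of bacterial S5, measured 33.5, 35.4 and 32.8 CPM in HFD and 36.1, 29.5 and 29.4 CPM in HFD+Mino. Its groups overlapped, and the log2 fold change of -0.10 had a 95% interval from -0.53 to 0.34. Mrpl3, the homolog of bacterial L3, had a log2 fold change of 0.10 (95% interval -0.36 to 0.56), and Mrps2 one of 0.16 (-0.26 to 0.59). The upper bounds of Mrpl3, Mrps2 and Mrps5 all lie below the median of the members. Mrps2 measured 50.02, 49.1 and 56.9 CPM in HFD and 57.1, 60.4 and 57.3 CPM in HFD+Mino. Its HFD+Mino samples were all above its HFD samples, by a small margin.

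Members with well-known functions differed in the size of the change. Mrpl58, a peptidyl-tRNA hydrolase that frees stalled ribosomes, had a log2 fold change of 1.37 ± 0.34 in HFD+Mino against HFD. Mrpl12, the homolog of the bacterial stalk protein, had 0.84 ± 0.32, with samples of both groups overlapping. Mrpl44, which has an RNase III fold, measured 40.2, 43.2 and 44.8 CPM in HFD and 83.7, 77.5 and 56.5 CPM in HFD+Mino, a log2 fold change of 0.76 ± 0.22. Mrps7 had 1.05 ± 0.28, Mrps16 had 1.48 ± 0.38, Mrps34 had 1.01 ± 0.29 and Mrps22 had 1.10 ± 0.29. Mrps36, now placed in the 2-oxoglutarate dehydrogenase complex rather than the ribosome, had 1.01 ± 0.40, overlapping groups and 3 annotated pseudogene copies that could take or give reads. The 3 paralogs of Mrps18 had log2 fold changes of 0.95 ± 0.31 for Mrps18a, which sits in the large subunit, 1.47 ± 0.32 for Mrps18b and 1.66 ± 0.38 for Mrps18c.

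**Figure D3:**
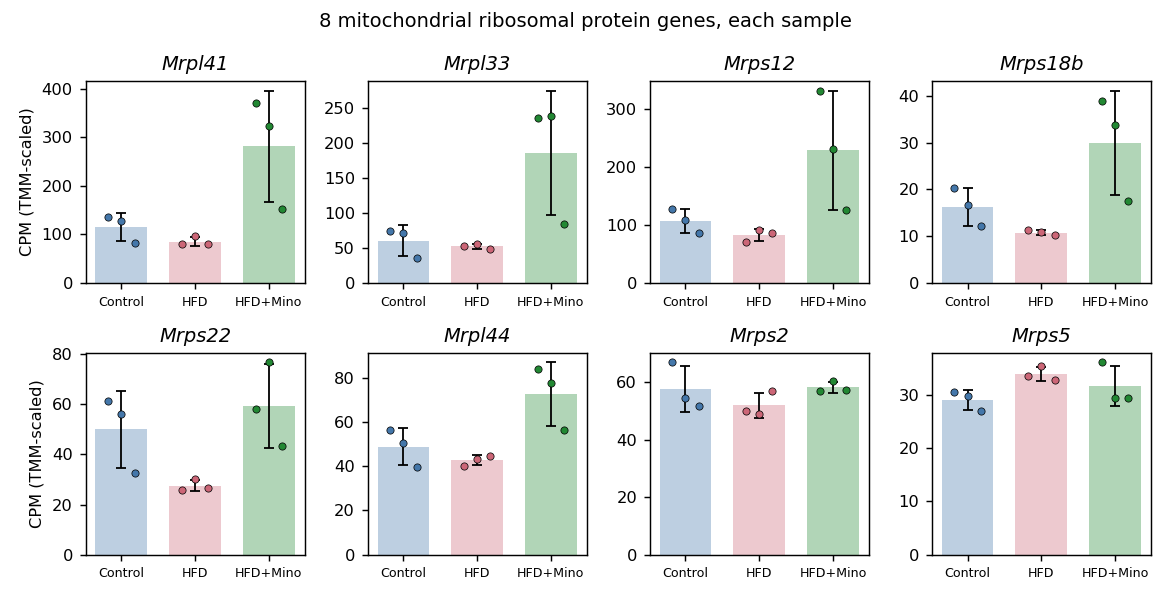
CPM of 8 members in each sample (points), with the group mean (bar) and SD (error bar), n = 3 per group and replicates 1 to 3 from left to right within a group. In Mrpl41, Mrpl33, Mrps12 and Mrps18b the lowest HFD+Mino sample is above the highest HFD sample, and in Mrps5 the groups overlap.

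The difference was of similar size in the parts of the ribosome. The median log2 fold change in HFD+Mino against HFD was 1.16 for 29 large subunit proteins with a bacterial homolog and 1.21 for 22 mitochondrion-specific large subunit proteins. It was 1.25 for 16 small subunit proteins with a bacterial homolog and 1.01 for 10 mitochondrion-specific ones. At FDR under 0.05 by edgeR, 23 of 29, 19 of 22, 14 of 16 and 9 of 10 were called higher and none lower. Members with an NRF1 motif in the promoter window had a median of 0.95 (13 members) against 1.23 without it (56 members), and those with an ETS motif had 1.33 (26) against 1.11 (43), as descriptions with no test.

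The number of members called in HFD+Mino against HFD depended on the model and on single libraries. In 1 model same-numbered Control and HFD+Mino samples shared a block term, a pairing read from these same counts and named by no source. Calls under this block, here and below, depend on that pairing. With the block, 68 members were called higher at FDR under 0.01 by edgeR, against 12.9% of tested genes. The median log2 fold change was then 1.07. Without HFD+Mino replicate 3 the count was 66, against 12.1% of tested genes, and the median 1.43. Without Control replicates 1 and 3 in turn the count was 2 and 3, against 2.53% and 2.29% of tested genes. The count was 0 without Control replicate 2, without each HFD sample in turn, and without HFD+Mino replicate 1 or 2. The share of all tested genes is not given for these models, so these counts do not set the members apart from other genes. Without HFD+Mino replicates 1 and 2 together, chosen after the marker values were seen, the median was 0.41 and 76 members stayed above 0. That model holds replicate 3 as its only HFD+Mino sample, so these values rest on that mouse alone. The median was above 0 in each of these models, and it was smallest without the libraries with high Avp.

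Exon length moved with this comparison across the whole transcriptome. It was taken as the union of all annotated exons of a gene, which can exceed the length of its mRNA. Members were short, with a median exon length of 2394 nt against 4334 nt for tested genes with a known length, and the Spearman correlation of length and log2 fold change was -0.32 across the 78 members and -0.49 across 15625 genes. In the shortest of 4 equal length classes (up to 2717 nt) the median log2 fold change was 0.77 for all genes and 1.23 for 44 members. In the next 3 classes the medians of all genes were 0.01, -0.34 and -0.56, and those of the 15, 12 and 7 members in them were 1.04, 1.02 and 1.21. In the longest class all 7 members had a fold change above 0, whereas the median gene was below 0. Mrpl33 (7326 nt) and Mrpl13 (7936 nt) are in this class by annotated exon. The length of their mRNA in these samples was not measured, so the classes and the trend may misplace such genes. With the length trend removed the member median was 0.55 and 70 members were above 0. Of the 78 members 2 were called higher by edgeR (Mrpl13 at 2.14 and Mrps17 at 1.90 on the log2 scale), both with long annotated exons, a share near the 1.99% of tested genes called higher in that model. Under that setting Mrps5 was above 0 and 8 members were below 0. The part of length in the difference was not tested further.

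**Figure D4:**
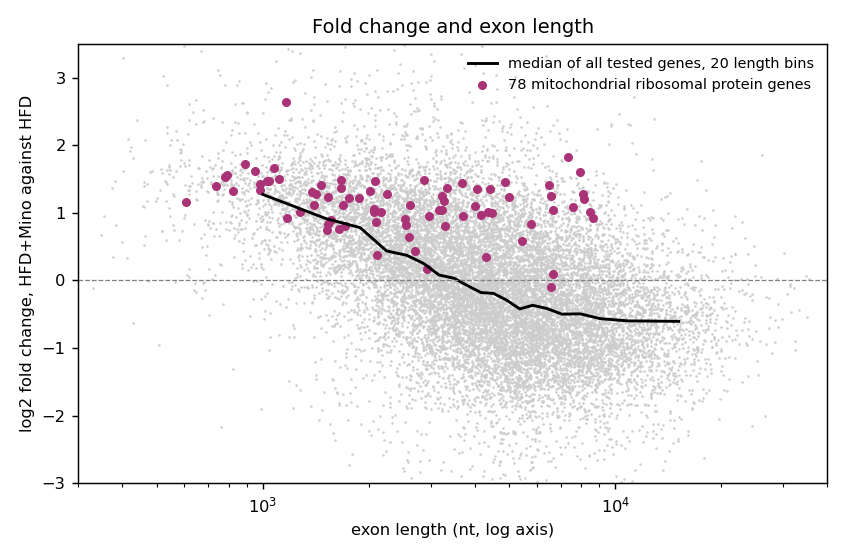
Log2 fold change in HFD+Mino against HFD (vertical axis) against exon length in nt (horizontal log axis) for 15625 tested genes (grey), of which 92 lie outside the axes, with the median in 20 length bins (line) and the 78 members (purple). The line falls from 1.27 in the shortest bin to -0.61 in the longest, and most members longer than 4334 nt lie well above it.

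The third comparison sets the treated high fat diet mice against chow. Members had a median log2 fold change of 0.77 in HFD+Mino against Control (all tested genes, -0.02), and 77 of 78 were above 0. The edgeR test called 0 members and 0% of all tested genes higher at FDR under 0.01, although 3698 genes (21.3%) had an unadjusted p under 0.05 and DESeq2 called Mrpl33 and Mrpl52 (1.01% of the genes it tested were called higher). The 95% interval lay above 0 for 48 members. In 9 of 78 members every HFD+Mino sample was above every Control sample, a share near the 8.93% of all tested genes (Mrpl10, Mrpl17, Mrpl33, Mrpl38, Mrpl41, Mrpl44, Mrpl52, Mrps18c and Mrps26). The smallest member FDR was 0.132 by edgeR.

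Mrpl52, a mitochondrion-specific large subunit protein, measured 32.4, 34.0 and 20.01 CPM in Control and 145, 105 and 38.3 CPM in HFD+Mino. The groups did not overlap and its log2 fold change was 1.74 ± 0.42 (FDR = 0.132 by edgeR). Mrpl33 had 1.62 ± 0.39, Mrpl41 had 1.28 ± 0.32 and Mrpl17, a conserved large subunit protein, had 1.15 ± 0.30. Mrpl3 was the only member below 0, at -0.12 with a 95% interval from -0.58 to 0.34. With the replicate block in Control and HFD+Mino, 23 members were called higher by edgeR against 2.68% of tested genes, Mrpl52 (1.58), Mrpl33 (1.55), Mrpl41 (1.22) and Mrpl17 (1.07) among them. Without HFD+Mino replicate 3 the count was 27, against 4.27% of tested genes, and 19 of these were also called under the block. Without Control replicate 1 the median was 0.94, 78 members were above 0 and 0 were called. Without HFD+Mino replicates 1 and 2 the median was 0.071, with 57 members above 0 and 21 below.

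The study's own 3-way question is which genes the diet moved away from both other groups. HFD had the lowest group mean for 74 members, and the order HFD, Control, HFD+Mino from low to high held for 73 members and for 25.6% of tested genes. At FDR under 0.01 and 1.5-fold from the mean of the 3 groups, edgeR called 0 members, against 1.21% of tested genes with HFD lower. DESeq2 called 26 members, against 6.99% of the genes it tested, and edgeR under the block in Control and HFD+Mino called 12, against 5.4% of tested genes. Without HFD+Mino replicate 3, edgeR called 34 members, against 7.44% of tested genes. Without Control replicate 1, and without HFD+Mino replicates 1 and 2, edgeR called 0 members, against 1.08% and 1.6% of tested genes.

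The other genes of the mitochondrial translation system were described in HFD+Mino against HFD, where 14.6% of all tested genes were higher and 12.9% lower at FDR under 0.05 with at least 1.5-fold, the threshold used for the counts of these lists. Among 5 subunits with other names, Chchd1 (1.59 ± 0.41), Aurkaip1 (1.22 ± 0.32) and Gadd45gip1 (1.03 ± 0.31) were higher in HFD+Mino than in HFD at FDR under 0.05 by edgeR. Dap3, a GTPase of the small subunit, had a log2 fold change of 0.30 ± 0.21 and Ptcd3, a pentatricopeptide repeat protein, -0.05 ± 0.24. The mitochondrial rRNAs themselves, mt-Rnr1 and mt-Rnr2, had log2 fold changes of 0.42 ± 0.47 and 0.68 ± 0.45 in HFD+Mino against HFD, and of 1.10 ± 0.48 and 0.83 ± 0.45 in HFD against Control, none of which passed. Under the replicate block in Control and HFD+Mino both were called higher in HFD against Control. By edgeR mt-Rnr1 was then at 1.31 with FDR = 0.00163 and mt-Rnr2 at 1.02 with FDR = 0.00465. Of all 17344 tested genes, 581 were called higher in that comparison under the block, against 55 without it. Both rRNAs were also called higher in HFD+Mino against Control, where the block called 2.68% of tested genes higher. Their sign in HFD against Control was opposite to that of most members, with mt-Rnr2 at 6863, 5214 and 1802 CPM in Control and 8006, 8559 and 8051 CPM in HFD.

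Of 24 assembly factors the median log2 fold change was 0.40, with 8 higher and 1 lower at FDR under 0.05 by edgeR, against 14.6% and 12.9% of all tested genes. Mettl17, which is needed to build the small subunit, was called higher at FDR under 0.01. The Control samples were at 36.5, 38.5 and 34.4 CPM, the HFD samples at 17.1, 19.9 and 17.7 CPM and the HFD+Mino samples at 37.7, 36.5 and 35.4 CPM. Each HFD sample was below all samples of the other groups, which overlapped. The log2 fold change was 1.00 ± 0.20 with FDR = 0.00904 by edgeR in HFD+Mino against HFD, and the difference between HFD and Control was of the same size with the opposite sign (FDR = 0.0134 by edgeR). The 3 HFD+Mino samples of Mettl17 thus lay close together, and without HFD+Mino replicates 1 and 2 its log2 fold change was 0.96. Over the 9 samples left out in turn its edgeR FDR ran from 0.00314 to 0.0529.

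Of 15 translation factors the median was 0.47, with 3 higher and 2 lower at FDR under 0.05 by edgeR, shares near those of all tested genes. Slirp, an RNA-binding protein that keeps mitochondrial mRNAs stable, had a log2 fold change of 1.86 ± 0.40, while Lrpprc, its partner, had -0.76 ± 0.24. Gfm1, the elongation factor that moves the ribosome along the mRNA, had -0.88 ± 0.25 and Guf1, a GTPase related to elongation factors, 0.86 ± 0.24. The 17 mitochondrial aminoacyl-tRNA synthetases had a median of -0.09. At FDR under 0.05 by edgeR 2 of them were higher and 3 lower, against 14.6% and 12.9% of all tested genes. Rars2 (0.91 ± 0.22) and Yars2 (0.86 ± 0.23) were higher, and Iars2 (-0.94 ± 0.24) and Lars2 (-1.70 ± 0.44) were among the lower ones. The mean count of Lars2 was 58703, against 1581 for Iars2, the next highest of these synthetases. Lars2 was highest in HFD (2759 to 3206 CPM), the group in which Rn45s was also highest. The source of the Lars2 reads was not tested.

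Of 7 regulators of mitochondrial biogenesis the median was -0.47, with 0 higher and 3 lower at FDR under 0.05 by edgeR, where 12.9% of all tested genes were lower. Their median exon length was 6284 nt. With the length trend removed the list median was -0.026, and edgeR called 0 of them at FDR under 0.01. Gabpa, the DNA-binding subunit of an ETS factor, was called lower in HFD+Mino than in HFD. Control samples lay at 10.9, 9.93 and 10.7 CPM, HFD samples at 17.9, 23.0 and 18.4 CPM, and HFD+Mino samples at 6.84, 7.05 and 8.44 CPM. Its log2 fold change was -1.41 ± 0.24 with FDR = 0.00606 by edgeR, and the 3 groups did not overlap. The edgeR FDR of Gabpa ran from 0.00174 to 0.0357 over the samples left out in turn. Without HFD+Mino replicates 1 and 2 its log2 fold change was -1.23. With the length trend removed it was -1.02 with FDR = 0.0148 by edgeR, no longer called. The coactivators Ppargc1b and Pprc1 had -1.51 ± 0.48 and -1.48 ± 0.49, Ppargc1a had -0.47 ± 0.26 without passing, and Nrf1 had -0.20 ± 0.26. In HFD+Mino replicates 1 to 3 Ppargc1b measured 3.87, 2.26 and 9.20 CPM, and Pprc1 6.19, 4.98 and 16.8 CPM. The HFD samples were at 14.2 to 15.4 CPM for Ppargc1b and 23.8 to 28.5 CPM for Pprc1. Of 4 genes of mitochondrial transcription, Polrmt, the RNA polymerase of mitochondria, was lower (-1.18 ± 0.36) and Tefm, its elongation factor, higher (0.86 ± 0.27) at FDR under 0.05 by edgeR, while Tfam, which packs mitochondrial DNA, had 0.03 ± 0.24. Among 15 tested genes of the mitochondrial stress response, Clpp, a protease of the matrix, was called higher (1.34 ± 0.27, FDR = 0.00950 by edgeR). Without HFD+Mino replicates 1 and 2 the log2 fold change of Clpp was 0.64, with the length trend removed it was 0.30, and its edgeR FDR ran from 0.000636 to 0.0512 over the samples left out in turn. Ddit3 (1.65 ± 0.39) and Atf4 (1.01 ± 0.25), transcription factors of the integrated stress response, were higher at FDR under 0.05 by edgeR. With Clpp they made 3 of the 15 higher and 0 lower, against 14.6% and 12.9% of all tested genes. The list median was 0.42, with 11 genes above 0 and 4 below. Ddit3 measured 95.9, 92.1 and 31.9 CPM in HFD+Mino replicates 1 to 3, against 19.9 to 27.7 CPM in HFD.

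**Figure D5:**
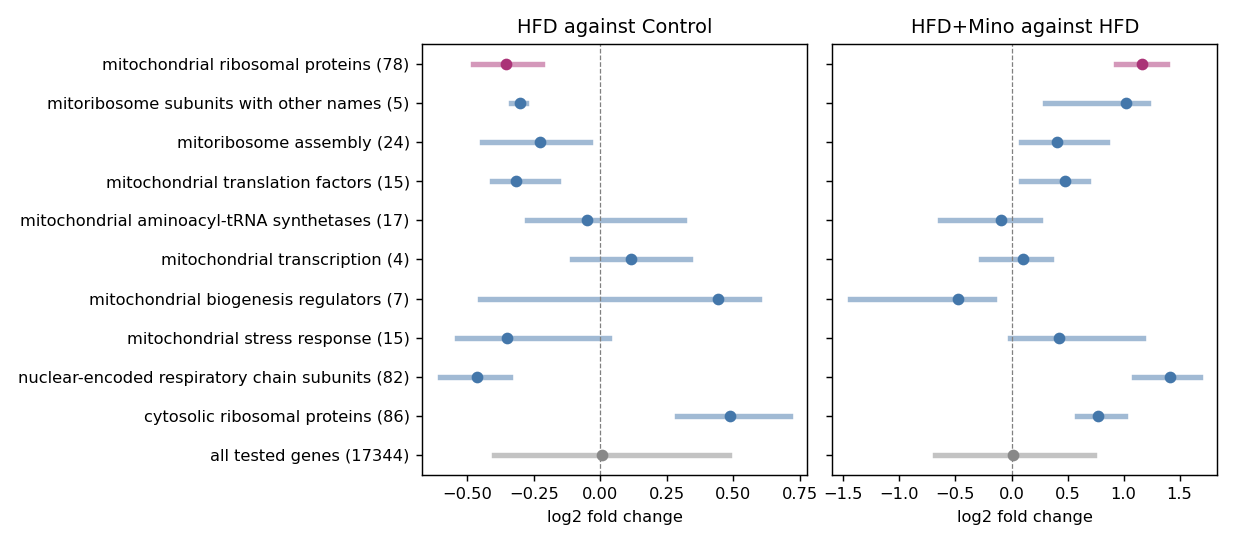
Median log2 fold change (point) and interquartile range (bar) for each list, with the number of tested genes in brackets, in HFD against Control (left) and HFD+Mino against HFD (right). The mitochondrial ribosomal proteins lie at -0.35 and 1.17, the cytosolic ribosomal proteins at 0.49 and 0.77, and all tested genes near 0.

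The members were set beside the lists most like them. The 82 nuclear-encoded respiratory chain subunits had medians of -0.46 in HFD against Control and 1.42 in HFD+Mino against HFD, with 76 below 0 and 80 above 0. The 86 cytosolic ribosomal proteins had medians of 0.49 and 0.77, with 83 and 85 above 0, so in HFD against Control their direction was opposite to that of the mitochondrial members. At FDR under 0.05 in HFD+Mino against HFD, edgeR called 65 of 78 members, 59 of 82 respiratory chain subunits and 13 of 86 cytosolic ribosomal proteins higher, where 14.6% of all tested genes were higher, so the share of the cytosolic list was near the background. Every HFD+Mino sample was above every HFD sample in 71, 67 and 4 of these genes, against 23.3% of all tested genes. With the length trend removed the medians in HFD+Mino against HFD were 0.55, 0.49 and 0.08. The 13 protein-coding genes of the mitochondrial genome, whose mRNAs this ribosome translates, had a median of 0.71, and -0.63 with the length trend removed. These values describe lists that share samples, and differences between lists were not tested.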

How the data were processed

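RNA of 9 PVN punches, 3 per group, was measured by bulk RNA sequencing from cDNA made with a low-input SMARTer kit and a Nextera XT library, read as 2 × 50 cycles. Reads were aligned to mm10 (GRCm38) with HISAT2 and assigned to genes with featureCounts per the methods and the submitters' notes, and the authors deposited the resulting raw count per gene without normalization. The strand setting and the treatment of multi-mapping reads are not given in the sources used here. Of the members, 33 share exon sequence with another gene (27 of them at least 100 nt) and 3 have annotated pseudogenes, so their counts are less certain.

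Groups were taken from the sample labels, and replicates are numbered as in the titles. Samples are separate mice, and replicate pairs differed beyond sampling noise (chi-square over degrees of freedom from 21.5 to 329). Counts were fitted with edgeR 4.0.16 in R 4.3.3 (filterByExpr, TMM, quasi-likelihood) on all 9 samples, with Benjamini-Hochberg adjustment over 17344 genes. SEs were derived from the F statistic. A call needs FDR under 0.01 and at least 1.5-fold. CPM uses TMM-scaled library sizes, and reads have no molecular identifiers, so counting limits cover counting error only. Genes without a symbol held at most 0.0932% of a sample's counts. The code was tested on simulated data for HFD against Control over 17344 genes: of 200 changed genes 37% at 4-fold and 2% at 2-fold were recovered, and 0 genes were called where none was changed.

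Alternatives were DESeq2 1.42.0, RLE size factors, other filters on low counts, rRNA and mitochondrial genes left out, replicate blocks, trends on exon length and GC content (GENCODE M21), other thresholds, the 6 samples of a pair alone, and each sample left out. Leaving out HFD+Mino replicates 1 and 2 together was added after seeing the data. Same-numbered Control and HFD+Mino samples deviated together (correlations 0.135, 0.163 and 0.292). This was taken as pairing from the counts alone, since no source names a shared litter or batch. Control replicate 2 and HFD replicate 1, which differ in number, had a correlation of 0.167, so such values also arose without a shared number. Tables were made with pandas 2.3.3 in Python 3.11.15, and figures with matplotlib 3.10.9.

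The members, gene lists and tests were chosen with earlier results of these data known. Named members are the called ones, otherwise the 4 with the smallest p in each direction of each comparison, the 4 highest and lowest per kb, those nearest the count minimum, and a set chosen for known functions. From each other list the called genes, or else the 2 with the smallest p, were named. Dap3, Ptcd3, Gadd45gip1, Lrpprc, Gfm1, Yars2, Lars2, Pprc1, Ppargc1a, Ppargc1b, Nrf1, Tfam, Ddit3, Atf4, Mrpl13 and the mitochondrial rRNAs fall outside this rule and were picked with their values in view.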

Additional observations from a re-analysis of the deposited data

How the results depend on the processing

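The direction of the member medians was the same under all alternatives in the 3 pair comparisons. In HFD against Control no alternative called a member, and the medians ran from -0.55 to -0.17 over the samples left out in turn. In HFD+Mino against HFD 1 member was called higher, beside 344 of all 17344 tested genes. DESeq2 called 61 members higher (2112 of all genes), the length trend removed gave 2 (345) and the GC trend removed 11 (875). The replicate block in Control and HFD+Mino gave 68 (2233), and FDR under 0.05 gave 65 (2524). The count was 35 without a filter on low counts, 11 with the replicate block in all groups and 0 in the model of 6 samples. No count over all genes is given for these models, so their counts do not set the members apart from other genes. Leaving out each sample gave 0 to 66 called members, and 12.1% of tested genes were called higher where the count was 66. The median of 1.17 became 0.55 with the length trend removed and 0.41 without HFD+Mino replicates 1 and 2. In HFD+Mino against Control, where 0 were called, the counts were 2 with DESeq2 (1.01% of all genes it tested) and 23 with the replicate block in Control and HFD+Mino (2.68%). They were 0 to 27 over the samples left out, with 4.27% of tested genes where the count was 27. The median became 0.071 without HFD+Mino replicates 1 and 2. In the 3-way test, where 0 were called, the counts were 26 with DESeq2 (6.99% of all genes it tested) and 12 with the replicate block in Control and HFD+Mino (5.4%). They were 0 to 34 over the samples left out, with 7.44% of tested genes where the count was 34. The counts were 12 without a filter, 1 with the replicate block in all groups and 23 at FDR under 0.05. No share of all genes is given for these settings, so their counts do not set the members apart from other genes. With the length trend removed the log2 fold change in HFD+Mino against HFD changed sign for Mrps5 (0.36), Mrpl43 (-0.13), Mrpl12 (-0.056), Mrpl44 (-0.014), Mrps2 (-0.0084) and Mrps36 (-0.026). The causes were not tested beyond the fewer samples that some of these models hold.

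Each group held 3 mice, and the median coefficient of variation of a member was largest in HFD+Mino, at 38.8%.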
